A study of Mus musculus with 6 samples.

Results

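Trem2 foam macrophage genes are a set of 10 genes used in mouse atherosclerosis to mark lipid-loaded macrophages of the arterial wall. They were found by symbol among the 55487 genes of the deposited table, and all 10 were present once: Trem2, Gpnmb, Spp1, Lgals3, Cd68, Fabp5, Itgax, Cd9, Plin2 and Lpl. RNA came from mouse aortas without their adventitia, that is, from media and intima, and 6 libraries were sequenced as paired reads of 50 bases. In 3 libraries, here called labelled deficient, the recipients were labelled ChemR23e/eApoe-/-, and in 3, here called labelled control, they were labelled Apoe-/-. Both groups lacked Apoe, both had received Apoe-/- marrow at 8 to 10 weeks of age, and both, after 4 weeks of rest, had spent 6 weeks on a Western diet with 21% fat and 0.15 to 0.2% cholesterol. ChemR23 is the chemerin receptor encoded by Cmklr1, and the labels describe its loss as limited to non-hematopoietic cells. Blood-derived macrophages of both groups would thus come from marrow with the receptor gene. The labels call the tissue enriched for smooth muscle and endothelial cells, and do not say whether each library is 1 animal.

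Macrophages that take up lipoprotein store the cholesterol as ester in lipid droplets and become foam cells. TREM2 is a lipid-sensing receptor on such cells that signals through the adaptor TYROBP, and cells with high Trem2 share a set of transcripts for lysosomal, lipid-binding and secreted proteins. In plaques these cells are usually told apart from resident macrophages of the vessel wall and from inflammatory macrophages. Several of the 10 genes are not limited to macrophages: Cd9 is made by most cells, Fabp5 also by endothelium, Plin2 by any cell that stores lipid, and Lpl also by adipocytes and muscle.

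The start regions of 8 of the 10 genes were matched in RefSeq (9 windows, GRCm38.p6), each running from 250 bases before to 50 bases after an annotated start. No window was matched for Fabp5 and Lpl. The 4 windows with TGANTCA, a loose form of the AP-1 element with any middle base, are printed here. No other element searched was found in more of these windows. The windows of Spp1, Lgals3, Cd9 and Plin2 lacked its letters. They lie at chr17:48346151-48346450 (plus strand, Trem2), chr6:49036268-49036567 (plus strand, Gpnmb), chr11:69666121-69666420 (minus strand, Cd68) and chr7:128129300-128129599 (plus strand, Itgax). Each is written 5′ to 3′ along its gene's strand. Capitals mark TGANTCA, the loose AP-1 form, and TTGCNNAA, letters bound by C/EBP factors.
Trem2: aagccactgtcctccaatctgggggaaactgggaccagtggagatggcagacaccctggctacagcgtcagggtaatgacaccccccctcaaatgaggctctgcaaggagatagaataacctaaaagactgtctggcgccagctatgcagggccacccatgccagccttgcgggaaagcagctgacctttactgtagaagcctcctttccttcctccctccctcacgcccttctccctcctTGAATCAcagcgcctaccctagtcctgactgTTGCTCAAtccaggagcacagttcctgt
Gpnmb: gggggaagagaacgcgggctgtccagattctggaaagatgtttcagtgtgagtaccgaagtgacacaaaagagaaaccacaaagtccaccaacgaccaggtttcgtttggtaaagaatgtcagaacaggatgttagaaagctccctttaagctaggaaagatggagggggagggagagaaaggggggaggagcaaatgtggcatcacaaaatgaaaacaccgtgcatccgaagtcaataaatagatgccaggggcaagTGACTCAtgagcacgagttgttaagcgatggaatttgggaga
Cd68: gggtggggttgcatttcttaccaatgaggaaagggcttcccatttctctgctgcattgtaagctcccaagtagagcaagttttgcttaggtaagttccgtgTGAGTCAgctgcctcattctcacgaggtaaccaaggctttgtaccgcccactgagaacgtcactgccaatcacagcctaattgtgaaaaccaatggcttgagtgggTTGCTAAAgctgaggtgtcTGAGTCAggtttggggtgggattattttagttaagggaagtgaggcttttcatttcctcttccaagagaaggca
Itgax: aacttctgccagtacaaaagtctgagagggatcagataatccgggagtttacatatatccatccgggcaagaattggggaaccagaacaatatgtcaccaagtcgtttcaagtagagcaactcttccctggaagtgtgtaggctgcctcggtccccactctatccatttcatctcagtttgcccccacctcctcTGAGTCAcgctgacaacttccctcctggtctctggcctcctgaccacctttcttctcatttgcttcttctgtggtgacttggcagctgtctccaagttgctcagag
TGANTCA, which reads the same on both strands, stood in 4 of the 9 windows and in 7.81% of 32851 windows of all genes. It began 9 bases before the start in Trem2, at base 9 after it in Gpnmb, at 149 and 24 bases before it in Cd68, and 56 bases before it in Itgax. The middle base was C in Gpnmb and G in Cd68 and Itgax, as in the usual AP-1 element. In Trem2 it was A, so that window holds the loose form only. TTGCNNAA, sought on both strands, was found in windows of Trem2, Cd68 and Spp1, and in 10.8% of all windows. The letters CACGTG, the E-box of MITF and TFE factors, were found in Plin2 only (7.15% of all windows), and GAGGAAGT, the PU.1 letters, in Spp1 only (3.2% of all windows). No window of these genes held the direct repeats that PPAR and LXR receptors bind with RXR, which were found in 0.0396% and 0.0152% of all windows. These matches describe the letters and show no binding.

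The libraries held 30887855 to 38600604 reads assigned to genes. Cmklr1, the targeted gene, was at 2388, 1788 and 1551 normalized counts (reads divided by the authors' size factor of the library) in labelled-deficient replicates 1, 2 and 3 and at 1396, 1028 and 1720 in the controls (log2 difference 0.47, SE 0.21, limma adjusted p = 0.427), so it was not lower in the labelled-deficient libraries. The sources used here do not say which part of Cmklr1 the e allele removes, and reads from the remainder would check nothing. The log2 fold changes of the authors' deposited table have the opposite sign for the 10 genes and are smaller in size. Trem2 is at -0.61 (SE 0.18) in that table and was at 2.51 by DESeq2 on reads recovered from the normalized values. Only the signs are therefore compared. The table calls its groups treated and control, words that the sample labels do not use. Read as treated over control, its signs would make the labelled-control libraries the treated ones. Directions below follow the sample labels. Whether these labels are exchanged was not settled by these values, and every direction given would turn if they were. Labelled-deficient replicates 1 and 2 stood apart from the other 4 libraries: Xist, an X-linked RNA of female cells, was at 16083 and 13145 normalized counts there, against 373 in replicate 3 and 8.87 to 22.0 among controls. The Y-linked Ddx3y was at 8.54 and 0 in those 2 libraries and at 6058 to 6796 in the other 4. A female pattern was thus seen in 2 libraries of one group and in none of the other. Results are also given for the 4 other libraries, which expressed Y-linked genes and of which 1, replicate 3, is labelled deficient. These 4 were not alike in Xist, which was above all controls in replicate 3, and the source of that RNA was not tested. Smooth muscle markers defined the tissue, with Acta2 at 587012 to 835256 normalized counts.

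Of the 10 genes, 7 were on average 3.66 to 9.93 times as high in the labelled-deficient libraries as in the controls, and none of the 10 passed limma over the 20669 genes tested (adjusted p under 0.05). The calls over all genes amounted to 0.135% (28 genes). At an unadjusted p under 0.05, 8 of the 10 were higher, against 6.36% of all genes. In 8 of the 10, every labelled-deficient library lay above every control, against 8.8% of all genes, and in 0 of the 10 every one lay below (8.24% of all genes). All 10 log2 differences were above 0 (48.8% of all genes) and 7 were above 1 (3.89%). The median log2 difference of the 10 genes was 1.87, and that of all genes tested was -0.01. On reads recovered from the normalized values, DESeq2 called 7 of the 10 higher (2.46% of genes called higher) and edgeR called none (0.00658% called, with 8 of the 10 at an unadjusted p under 0.05). The authors' deposited table has an adjusted p under 0.05 for the same number, 7 of 10 (4.38% of genes that have one), among them Trem2 at 0.0201 and Lgals3 at 2.13e-04.

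**Figure D1:**
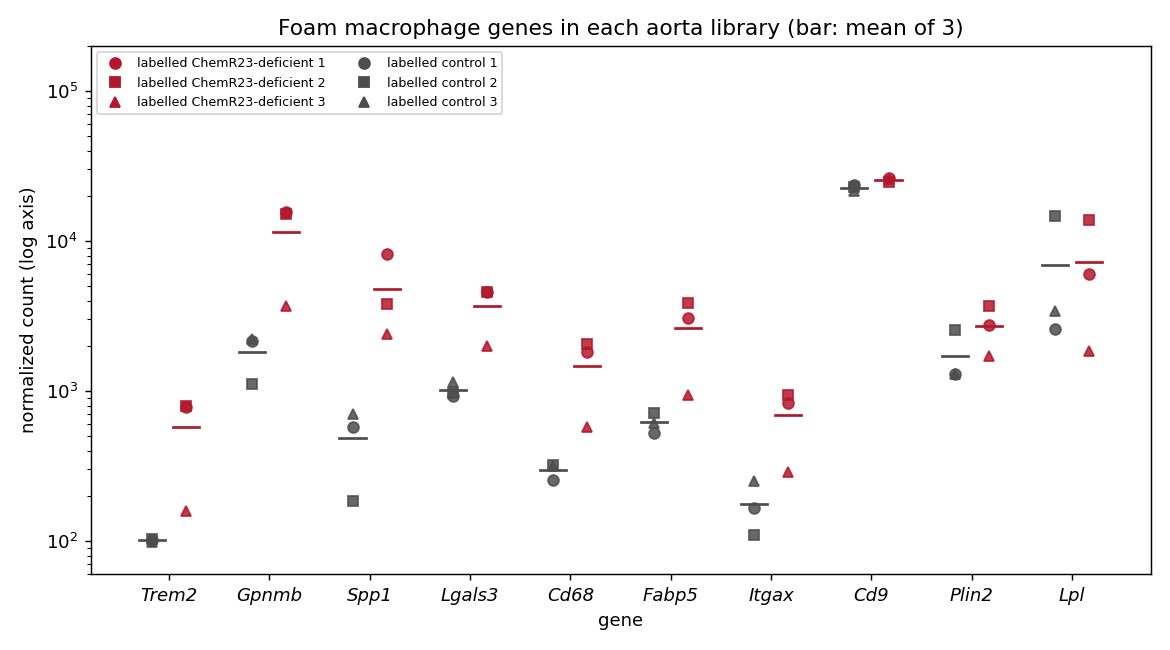
Normalized counts (log axis) of the 10 genes in each library, with labelled-deficient libraries in red, labelled controls in grey, a marker shape for each replicate and a bar at the mean of 3. From Trem2 to Itgax the red circles and squares (replicates 1 and 2) lie highest and the red triangle (replicate 3) lies between them and the controls, while Plin2 and Lpl overlap.

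Among the surface receptors, Trem2 (ENSMUSG00000023992, chromosome 17, 48346401 to 48354147, plus strand, GRCm38) had the tightest controls. Its normalized count was 781, 790 and 158 in labelled-deficient replicates 1, 2 and 3 and 102, 103 and 99.2 in controls 1, 2 and 3. The groups did not overlap, and replicate 3 was 1.56 times the control mean where replicates 1 and 2 were 7.71 and 7.80 times it. The group means were 576 ± 363 against 101 ± 1.99 (SD, n = 3 each), a log2 difference of 2.17 (SE 0.56, 95% interval 0.88 to 3.47, limma adjusted p = 0.185).

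Gpnmb encodes a transmembrane glycoprotein of lysosomes and of the surface of lipid-laden macrophages (ENSMUSG00000029816, chromosome 6, 49036546 to 49070929, plus strand). Its normalized count was 15532, 15068 and 3714 in the labelled-deficient libraries and 2145, 1106 and 2239 in the controls. Replicates 1 and 2 were again alike, and replicate 3 exceeded the highest control. This made a log2 difference of 2.45 (SE 0.54, 95% interval 1.20 to 3.71, limma adjusted p = 0.137).

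Itgax, the integrin alpha chain CD11c of dendritic cells and of plaque macrophages (chromosome 7, 128129547 to 128150657, plus strand), was at 831, 944 and 289 normalized counts against 165, 110 and 250. Replicate 3 lay just above control 3, the highest control. Between groups the log2 difference was 1.87 (SE 0.47, limma adjusted p = 0.174). Its beta chain partner Itgb2 was at 1018, 1054 and 396 against 305, 360 and 294 (log2 1.24, SE 0.35, limma adjusted p = 0.216).

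Cd9, a tetraspanin of the plasma membrane (chromosome 6, 125460266 to 125494791, minus strand), differed least among the 8 genes without overlap. It was at 26334, 24823 and 25868 normalized counts in the labelled-deficient libraries and 23644, 23002 and 21607 in the controls. The labelled-deficient mean was 1.13 times the control mean, with a log2 difference of 0.17 (SE 0.07, 95% interval 0.01 to 0.34, limma adjusted p = 0.375). Unlike the genes above, its replicate 3 was level with replicates 1 and 2. Its exons share 218 bases with Gm26728 on the other strand, and the sources used here do not give the strand setting of the counting.

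Among the secreted proteins, Spp1, which encodes the matrix protein and cytokine osteopontin (chromosome 5, 104435118 to 104441050, plus strand), showed the largest difference of the 10. Its normalized count was 8242, 3823 and 2404 in the labelled-deficient libraries and 572, 185 and 699 in the controls. In this gene replicate 3 was 4.95 times the control mean, the highest such ratio of that library among the 10 genes, and replicate 1 stood further above the controls still. Its log2 difference of 3.33 had an SE of 0.57 and a 95% interval of 2.02 to 4.64 (limma adjusted p = 0.0765). Its exons share 309 bases with Gm42793 on the same strand.

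Lgals3, which encodes the galactose-binding lectin galectin-3 (chromosome 14, 47367751 to 47386160, plus strand), was at 4570, 4580 and 1993 normalized counts against 921, 967 and 1153. The groups did not overlap, and replicate 3 was 1.97 times the control mean. With a log2 difference of 1.78 (SE 0.30, 95% interval 1.09 to 2.47), it had the lowest limma adjusted p of the 10, 0.0751.

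Cd68, a heavily glycosylated protein of the lysosomal membrane (chromosome 11, 69664213 to 69666153, minus strand), was at 1807, 2050 and 572 normalized counts against 256, 321 and 317. Replicates 1 and 2 were 6.07 and 6.89 times the control mean and replicate 3 was 1.92 times it. Its log2 difference was 2.11 (SE 0.43, limma adjusted p = 0.115).

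Of the lipid-handling genes, Fabp5, a cytosolic carrier of fatty acids (chromosome 3, 10012548 to 10016607, plus strand), followed the receptors. It was at 3080, 3875 and 934 normalized counts against 527, 715 and 615 (log2 1.86, SE 0.47, limma adjusted p = 0.18). The groups did not overlap, though replicate 3 was only 1.51 times the control mean. Processed copies of Fabp5 exist in the mouse genome, so its count may be split among them.

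Plin2, which coats lipid droplets (chromosome 4, 86648386 to 86670060, minus strand), did not separate the groups. It was at 2766, 3703 and 1720 normalized counts against 1307, 2536 and 1292, so that control 2 lay above labelled-deficient replicate 3. Its log2 difference was 0.68 with an SE of 0.33 and a 95% interval from -0.08 to 1.44 (limma adjusted p = 0.466).

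Lpl encodes lipoprotein lipase, which frees fatty acids from circulating triglyceride (chromosome 8, 68880491 to 68907448, plus strand). It was at 6062, 13864 and 1845 normalized counts against 2588, 14775 and 3420. The highest and the next highest library belonged to different groups, and the lowest was labelled-deficient replicate 3. The log2 difference was 0.08 with a wide interval (SE 0.82, 95% interval -1.82 to 1.98, limma adjusted p = 0.983). These libraries thus do not show whether Lpl was higher, lower or level between the groups. The sign of the log2 difference turned when labelled-deficient replicate 1 (-0.01) or 2 (-0.60) or control 1 (-0.40) or 3 (-0.20) was left out.

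**Figure D2:**
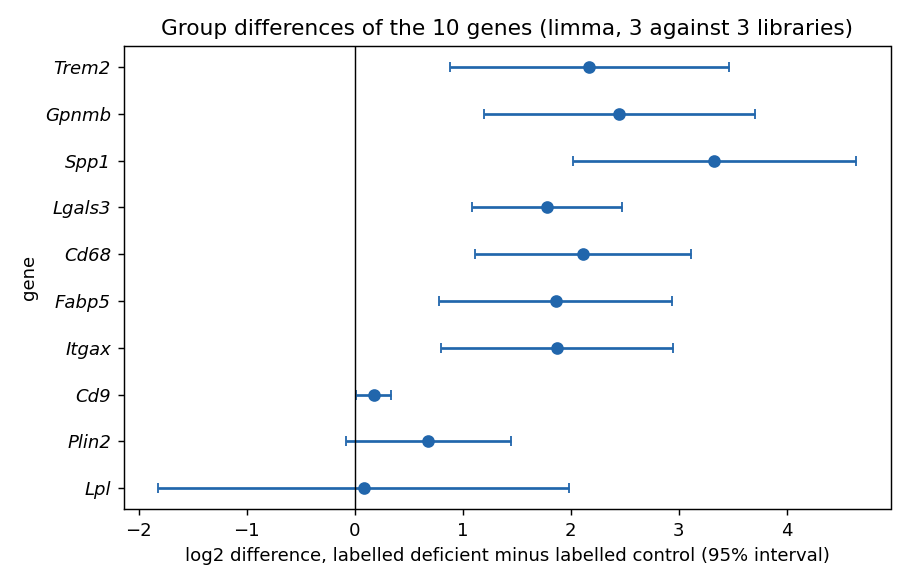
Log2 difference, labelled deficient minus labelled control, of each gene (points) with its 95% interval from limma (bars, 3 against 3 libraries). The values run from 3.33 for Spp1 to 0.08 for Lpl, and the intervals of Plin2 and Lpl reach across 0.

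Calls by limma appeared when labelled-deficient replicate 3 was left out. Without replicate 3, where sex pattern and group coincide and cannot be told apart, limma called 7 of the 10 higher (2.07% of all genes called), the genes from Trem2 to Itgax in the plot of values by library, with Trem2 at 2.94 (adjusted p = 7.12e-04) and Gpnmb at 3.13 (adjusted p = 0.00548). Within the 4 Y-expressing libraries the single labelled-deficient one, replicate 3, lay above all 3 controls in 8 of the 10 genes, where 25.9% of all genes tested did so. The median log2 difference of the 10 genes there was 0.72, with Spp1 at 2.51, Gpnmb at 1.09, Lgals3 at 0.98, Cd68 at 0.95, Itgax at 0.80, Trem2 at 0.63 and Fabp5 at 0.60. None of the 10 passed limma in that comparison, which takes the spread of the lone library from the controls (adjusted p 0.756 to 0.988). Unadjusted, 5 of the 10 had p under 0.05, against 2.56% of all genes at such a p and higher.

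Levels can be compared between genes only per length, here as normalized counts per kilobase of the principal annotated transcript. In the controls Cd9 was highest, at 18527 ± 848 (SD, n = 3), followed by Lpl (1684 ± 1655), Plin2 (907 ± 378), Lgals3 (714 ± 86.7), Fabp5 (627 ± 95.3), Gpnmb (494 ± 170), Spp1 (322 ± 178), Cd68 (242 ± 29.6), Trem2 (93.1 ± 1.83) and Itgax (43.3 ± 17.5). From Lpl down to Cd68 the control values of each pair of neighbours in this order overlapped. Cd9 above Lpl, Cd68 above Trem2 and Trem2 above Itgax did not. In the labelled-deficient libraries Spp1 (3200 ± 2020) and Gpnmb (3091 ± 1808) came next after Cd9 (20908 ± 630), and Cd68, Trem2 and Itgax were again the last by mean. Cd9 alone stood clear there, since from Spp1 down to Itgax the values of each pair of neighbours overlapped. Other transcripts of these genes are longer or shorter, and the merged exons of Trem2 amount to 4946 bases against 1088 in the principal transcript.

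Profiles across the 6 libraries were compared as log2 levels relative to the control mean, by their root mean square difference over 6 libraries. Among 13414 genes ranked by likeness to Trem2, Cd68 was at rank 2 (0.23) and Fabp5 at rank 8 (0.30). Gpnmb, Lgals3 and Itgax were at ranks 25, 40 and 44, while Spp1 was at 337, Plin2 at 414, Cd9 at 2517 and Lpl at 5436. The genes outside the set nearest to Trem2 were the chemokine gene Ccl3 (0.15), the lysosomal transporter gene Slc15a3 (0.23), the receptor genes Slamf8 (0.25) and Cd300a (0.27), and the hexokinase gene Hk3 (0.28). Ccl3 was low, at 67.4, 82.0 and 15.2 normalized counts against 11.2, 9.98 and 9.02. Nearest to Gpnmb were the proton pump subunit gene Atp6v0d2 (0.17), the endolysosomal channel gene Mcoln3 (0.22), the elastase gene Mmp12 (0.28), Fam83f (0.29) and Il12rb2 (0.32), an interleukin-12 receptor chain. Atp6v0d2 was at 1567, 2027 and 376 normalized counts against 213, 125 and 215. Likeness here rests on replicates 1 and 2 being high and replicate 3 intermediate, and none of these neighbours passed limma (adjusted p 0.098 to 0.235).

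A list of 30 other genes of lipid-associated macrophages, set up with earlier results of these data known, lay in the same direction. None passed limma in either direction, while 21 were higher and 1 was lower at an unadjusted p under 0.05 (6.36% and 5.79% of all genes), DESeq2 called 18 higher (2.46% of the genes it tested) and 0 lower, and 17 did not overlap in the higher direction (8.8% of all genes). The median log2 difference was 0.70. Mmp12, macrophage elastase, was at 3795, 3548 and 1296 normalized counts against 620, 393 and 772 (log2 2.18, SE 0.42, limma adjusted p = 0.101). The collagen-degrading cathepsin gene Ctsk differed by 0.93 (SE 0.20, limma adjusted p = 0.12), and Slc37a2, a sugar phosphate carrier gene, by 1.39 (SE 0.30, limma adjusted p = 0.122). Psap, the precursor of the saposins that help lysosomes break down sphingolipid, was at 82951, 93227 and 53608 against 44276, 45069 and 42918 (log2 0.76, SE 0.19, limma adjusted p = 0.174). In Mmp12 and Psap all labelled-deficient libraries lay above the controls.

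Partners of TREM2 had a smaller median log2 difference than the 10 genes. Of 16 genes of TREM2 signalling and the TREM family 0 passed limma, and the median was 0.31. At an unadjusted p under 0.05, 3 were higher and 1 lower (6.36% and 5.79% of all genes). DESeq2 called 1 higher (2.46% of the genes it tested) and 1 lower (294 of 16812 genes). The adaptor gene Tyrobp was at 1501, 2001 and 421 normalized counts against 316, 490 and 414 (log2 1.43, SE 0.52, limma adjusted p = 0.327), so that in replicate 3 it lay within the controls, unlike Trem2. The ratio of Trem2 to Tyrobp normalized counts was 0.521, 0.395 and 0.375 in the labelled-deficient libraries and 0.322, 0.21 and 0.24 in the controls, without overlap. Ratios taken to Cd68 and to Itgb2 overlapped: Trem2 to Cd68 was 0.432, 0.385 and 0.276 against 0.397, 0.322 and 0.313. Gpnmb to Cd68 was 6.49 to 8.60 against 3.45 to 8.39, and Itgax to Itgb2 was 0.730 to 0.896 against 0.305 to 0.853. Syk, the kinase downstream of TYROBP, differed by 0.96 (SE 0.33, limma adjusted p = 0.294). Clu, which encodes the TREM2 ligand clusterin, was abundant and differed by 0.21 (SE 0.13, limma adjusted p = 0.565). Treml1, a family member of platelets, was lower, at 0.949, 1.08 and 7.08 against 31.8, 54.3 and 41.1 (log2 -3.73, SE 0.60, limma adjusted p = 0.0677).

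General macrophage markers also had a positive median log2 difference, 1.16, with 16 of 19 above 0 (48.8% of all genes). None passed limma, 9 were higher and 1 lower at an unadjusted p under 0.05 (6.36% and 5.79% of all genes), and 3 were above all controls in every labelled-deficient library (8.8% of all genes). These 3 were Ctss, a lysosomal cathepsin gene (log2 2.01, limma adjusted p = 0.105), Mpeg1, which encodes a pore-forming protein of phagosomes (log2 1.80, limma adjusted p = 0.183), and Spi1, the gene of PU.1 (log2 1.17, limma adjusted p = 0.22). The lysozyme gene Lyz2 differed by 1.89 (limma adjusted p = 0.258), with replicate 3 below control 2. Their summed normalized count was 17857 to 67186 in the labelled-deficient libraries and 14754 to 20420 in the controls, and no marker was at 0 throughout. Adgre1, which encodes F4/80, was at 326, 505 and 182 against 161, 386 and 266 (log2 0.28, SE 0.41, limma adjusted p = 0.841), and the growth factor receptor gene Csf1r at 802, 1102 and 370 against 379, 881 and 588 (log2 0.25, SE 0.42, limma adjusted p = 0.871). Both overlapped between groups, and Mertk, an efferocytosis receptor gene, was lower without overlap (log2 -0.21, limma adjusted p = 0.334). In bulk tissue, a change in the number of cells of a type and a change in RNA per cell cannot be told apart.

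Relative to the control mean, the median log2 level of the 10 genes was 2.32, 2.58 and 0.72 in labelled-deficient replicates 1, 2 and 3 and -0.07, 0.02 and 0.05 in the controls. The macrophage markers had medians of 1.41, 1.79 and -0.11 against -0.34, 0.42 and 0.05, so that replicate 3 lay within the controls. The difference between both medians was 0.91, 0.79 and 0.83 in the labelled-deficient libraries and 0.27, -0.40 and 0.00 in the controls. By this measure the 3 labelled-deficient libraries were alike and above the controls, while their macrophage marker medians were not alike. The measure depends on the lists chosen, since single markers varied in replicate 3. There Ctss was at 2195 normalized counts, above the controls (1027 to 1260), and Csf1r at 370, below them (379 to 881). The measure has no test, because the genes were chosen with results known.

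**Figure D3:**
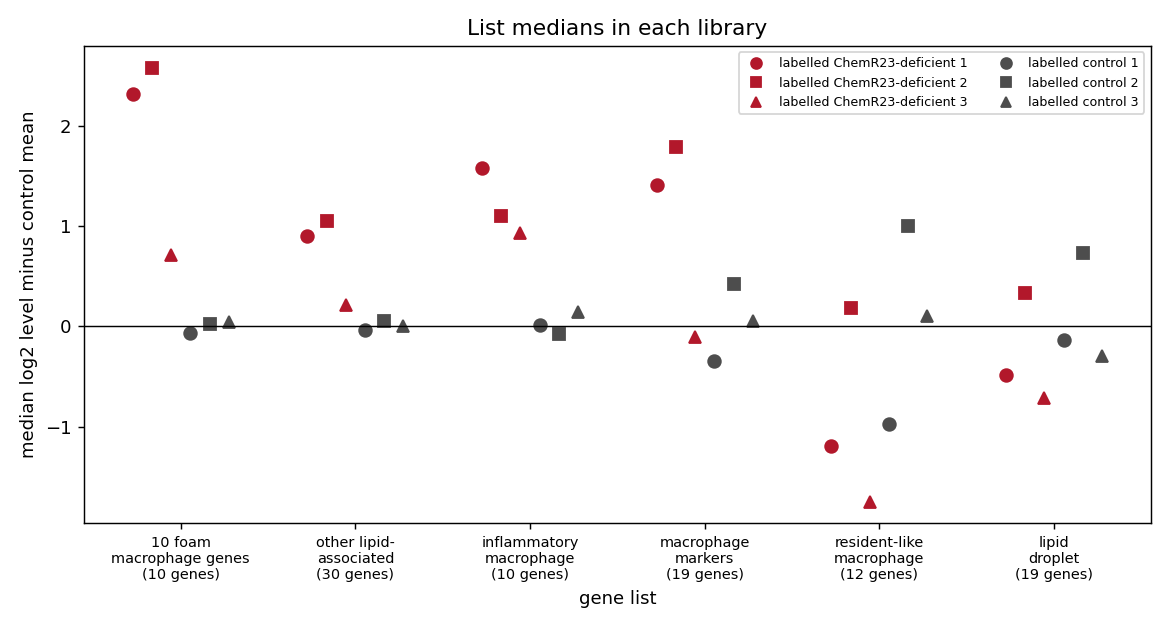
Median log2 level relative to the mean of the controls (y axis) for 6 gene lists (x axis) in each library, red for labelled deficient and grey for labelled control. For the 10 foam macrophage genes all red points (0.72 to 2.58) lie above the grey ones (-0.07 to 0.05). For macrophage markers labelled-deficient replicate 3 (-0.11) lies among the controls. Resident-like markers are below 0 in labelled-deficient replicates 1 and 3 and in control 1.

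Most markers of resident-like macrophages had log2 differences below 0. Of 12, 0 passed limma, 1 was higher and 4 were lower at an unadjusted p under 0.05 (6.36% and 5.79% of all genes), 3 were above 0, and the median log2 difference was -1.02. Their median level relative to the control mean was -1.19, 0.18 and -1.75 against -0.97, 0.997 and 0.11, so the groups overlapped. It was highest in control 2 and labelled-deficient replicate 2, the libraries with the most adipocyte marker RNA, whose part in these values was not tested. Cd163, a haemoglobin scavenger receptor, was at 20.9, 51.8 and 15.2 normalized counts against 80.9, 369 and 244 (log2 -2.88, SE 0.61, limma adjusted p = 0.122), and Lyve1, a hyaluronan receptor, at 72.2, 121 and 62.7 against 107, 498 and 218 (log2 -1.46, SE 0.52, limma adjusted p = 0.318). Cd163 did not overlap between groups and Lyve1 did. Cbr2, a carbonyl reductase gene, was at 11310, 10440 and 12374 against 8103, 9420 and 9647, higher without overlap (log2 0.33, limma adjusted p = 0.22), while Gas6 and Selenop differed by 0.13 and 0.06. These 3 genes, the only ones of the 12 above 0, had the highest mean levels of the list. Of 10 inflammatory macrophage genes 0 passed limma, 6 were higher at an unadjusted p under 0.05 (6.36% of all genes), and their median was 1.44. Il1a, an interleukin-1 cytokine, was at 103, 126 and 30.3 against 6.02, 6.66 and 9.02 (log2 3.19, SE 0.53, limma adjusted p = 0.0741), whereas Il1b differed by -0.25 and the prostaglandin synthase gene Ptgs2 by -0.01. Of 11 dendritic cell and monocyte markers, which bear on Itgax, 0 passed limma. At an unadjusted p under 0.05, 3 were higher (6.36% of all genes), and the median was 0.35.

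Within each group the library with the highest adipocyte marker levels was also the highest in Lpl and Plin2. Adipoq, the adiponectin gene of fat cells, was at 13.3, 1711 and 1.01 normalized counts in the labelled-deficient libraries and 575, 5082 and 1010 in the controls. Control 2 and labelled-deficient replicate 2 had the highest Adipoq and the highest Lpl of all libraries. In labelled-deficient replicate 1 Lpl was at 6062 with Adipoq near 0, above controls 1 and 3. Of 9 adipocyte markers 0 passed limma and 7 were lower at an unadjusted p under 0.05 (5.79% of all genes). None was at 0 in all libraries, though Lep was at 0 in labelled-deficient replicates 1 and 3, Retn in replicate 3 and Ucp1 in control 3. The summed level of the 9 was 398 to 18401 in the labelled-deficient libraries and 5261 to 45508 in the controls. Among the controls, whose Adipoq ran from 575 to 5082, Trem2 was within 99.2 to 103. Control 2, the highest in Adipoq, was the lowest control in Gpnmb (1106), Spp1 (185) and Itgax (110). That library was also the highest control in Trem2 (103), Cd68 (321) and Fabp5 (715). The part of adipocyte RNA in the values of the 10 genes was not tested.

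**Figure D4:**
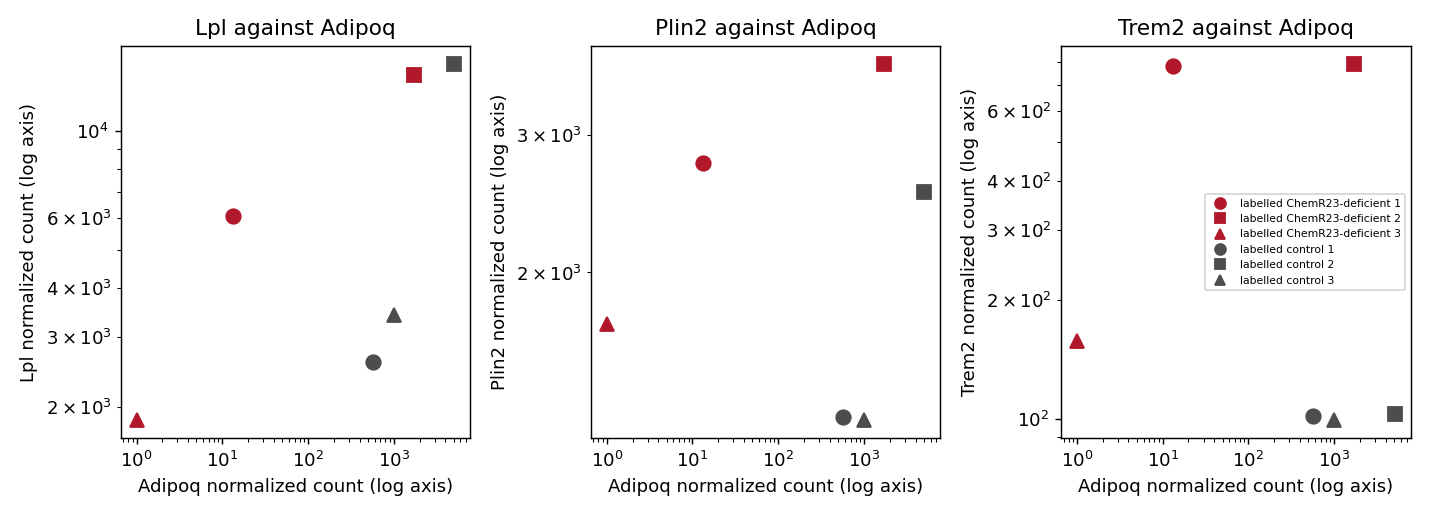
Normalized counts of Lpl, Plin2 and Trem2 (y axes, log) against Adipoq (x axes, log) in the 6 libraries, red for labelled deficient and grey for labelled control. Lpl is highest in the libraries with the highest Adipoq, while Trem2 is at 99.2 to 103 in all controls whatever their Adipoq.

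Other lipid droplet genes ranked the libraries within each group as Plin2 did, by their median level relative to the control mean (-0.48, 0.34 and -0.72 against -0.13, 0.73 and -0.29), but their group difference was not above 0. Of 19, 0 passed limma, 1 was higher and 3 were lower at an unadjusted p under 0.05 (6.36% and 5.79% of all genes), with a median of -0.25. Soat1, which esterifies cholesterol for storage, was at 1789, 1928 and 1275 normalized counts against 1302, 1134 and 1345 (log2 0.38, SE 0.15, limma adjusted p = 0.382). The adipocyte droplet gene Cidec differed by -4.84 (SE 1.90, limma adjusted p = 0.366), and lipase-related Pnpla3 by -2.69 (SE 0.96, limma adjusted p = 0.325). Plin4, the most abundant of the list, differed by -0.22 (SE 0.12, limma adjusted p = 0.534).

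Of 14 measured genes that regulate, anchor or resemble lipoprotein lipase 0 passed limma, and the median was 0.03. The proprotein convertase genes went apart: Pcsk5 was at 1924, 1902 and 1398 normalized counts against 1052, 1213 and 1010 (log2 0.66, SE 0.14, limma adjusted p = 0.118), and Pcsk6 at 289, 508 and 412 against 659, 748 and 597 (log2 -0.76, SE 0.20, limma adjusted p = 0.191). Neither overlapped between groups. Angptl8, an inhibitor of the lipase, was at 0, 31.3 and 0 against 21.5, 51.0 and 24.0 (limma adjusted p = 0.362). Lrp1, a receptor for lipoprotein remnants, differed by 0.07 (SE 0.09, limma adjusted p = 0.798).

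Receptors of osteopontin differed by little beside Spp1 itself. Of 9 measured receptor genes 0 passed limma and 4 were higher at an unadjusted p under 0.05 (6.36% of all genes). DESeq2 called 2 higher (2.46% of the genes it tested), and the median was 0.19. Itgav and Itgb3, which form the vitronectin receptor, differed by 0.27 (SE 0.07, limma adjusted p = 0.183) and 0.33 (SE 0.09, limma adjusted p = 0.186), with no overlap in either. Cd44, with a difference of 0.43 (SE 0.14, limma adjusted p = 0.281), was followed by Itga8, an integrin chain of smooth muscle, at 0.19 (SE 0.11, limma adjusted p = 0.538). Of the other integrin chains that pair with Itgb2, Itgad differed by 3.23 (SE 0.99, limma adjusted p = 0.251) and Itgal by -0.47 (SE 0.30, limma adjusted p = 0.587). Itgad was at 71.2, 108 and 5.05 normalized counts against 3.44 or less in the controls, so that its reads came almost wholly from replicates 1 and 2.

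Fatty acid-binding genes did not share the pattern of Fabp5. Of 4 measured, 0 passed limma and 1 was lower at an unadjusted p under 0.05 (5.79% of all genes). Fabp4, made by adipocytes, endothelium and macrophages, was at 1930, 12090 and 1705 normalized counts against 7536, 30878 and 8228 (log2 -1.86, SE 0.81, limma adjusted p = 0.411), with its highest values in the libraries of highest Adipoq. Fabp3 differed by 0.41 (SE 0.33, limma adjusted p = 0.68) and Fabp1 was at 5.40 or less throughout.

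Red cell RNA was lower in the labelled-deficient libraries. All 6 erythroid markers lay below all controls in every labelled-deficient library (8.24% of all genes), with summed normalized counts of 1680 to 11099 against 93054 to 289463. Hbb-bt, a beta globin gene, passed limma (log2 -5.52, SE 0.59, adjusted p = 0.045). Of 7 measured neutrophil markers the chemokine receptor gene Cxcr2 passed limma (log2 -3.35, SE 0.42, adjusted p = 0.045), and their summed counts were 161 to 251 against 504 to 1139. Within the labelled-deficient group replicate 3, the lowest in each of the 10 genes but Cd9, had the highest erythroid sum. Among the controls, control 3 had the highest erythroid sum. That library was the highest control in Gpnmb, Spp1, Lgals3 and Itgax and the lowest in Trem2, Cd9 and Plin2. It lay between the others in Cd68, Fabp5 and Lpl. The part of blood left in the samples in the values of the 10 genes was not tested.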

How the data were processed

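A stranded kit (TruSeq mRNA) was used, per the labels' protocols. Alignment, counting and testing used HISAT2 2.2.1, featureCounts 2.0.1 and DESeq2 1.36.0 on GRCm38, per the submitters' processing notes. The sources used here give neither gene annotation nor strand setting. The authors deposited 1 signal column per library, read counts divided by a size factor, as its values show. The table also holds the authors' deposited log2 fold change and its error, and the authors' p-value and adjusted p-value.

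Reads were recovered by dividing by each library's smallest value above 0. In every library 100% of values above 0 were then whole within 0.001. The main test was limma 3.58.1 (trend) in R 4.3.3 on log2(normalized count + 1), for genes averaging at least 1, two-sided, with Benjamini-Hochberg adjustment over 20669 genes. This scale understates differences of low genes. SE and 95% interval are limma's moderated ones, and errors beside means are SDs. edgeR 4.0.16 and DESeq2 1.42.0 were run on recovered reads. Missing symbols (3422) were filled by gene ID for 3304 genes. Positions and lengths are from GENCODE M21 (GRCm38), start regions from RefSeq. The fits were tested on simulated data.

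The 10 genes and all lists were chosen with earlier results of these data known. Named from each pathway list were the 3 genes of lowest unadjusted p and the most abundant one. Genes named from marker lists, and genes quoted beside a member, were chosen after their values were seen. Replicates are numbered in accession order. Nothing says that libraries are separate animals, so p-values reflect the spread of these samples only. Some genes stand in more than 1 list.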

Additional observations from a re-analysis of the deposited data

How the results depend on the processing

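Over all genes limma called 28, and 29, 31 and 33 with a pseudocount of 0.5, a pseudocount of 5 and TMM scaling. It called 91 with no filter, 1 with a mean of at least 10, 0 among the 4 libraries with Y-linked expression and 0 with a covariate for it. edgeR called 1 and DESeq2 707. With 1 library left out limma called 0 to 427. Of the 10 genes limma called 0, with no filter 2 (Spp1 and Lgals3, 0.322% of genes called), DESeq2 7, and with 1 library left out 0 to 7, the 7 without labelled-deficient replicate 3. Their median log2 difference was 1.87, 1.57 to 2.45 with 1 library left out, and 0.72 both among the 4 libraries with Y-linked expression and with the covariate, which takes up labelled-deficient replicates 1 and 2. Lpl turned to -1.46 in both of these, and ran from -0.60 to 0.85 with 1 library left out. The other 9 genes kept their sign in every fit. The cause of these shifts was not tested. Counts of the 10 genes lying above all controls without overlap were added for subsets of libraries after the data were seen. They were 8 in the 4 libraries (25.9% of all genes) and 9 without replicate 3 (16.3% of all genes). The difference from the macrophage median was 0.89 between group means (0.75 with list means, 0.91 with a pseudocount of 5). No paired analysis was possible because the labels carry no replicate numbers.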

Other observations

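Relatives of the foam macrophage genes varied one by one. Of 6 measured galectin genes other than Lgals3, 0 passed limma, 2 were higher and 2 lower at an unadjusted p under 0.05 (6.36% and 5.79% of all genes), and the median log2 difference was 0.15. Lgals9 differed by 0.34 (SE 0.14, limma adjusted p = 0.385), Lgals1, the most abundant, by 0.31 (SE 0.13, limma adjusted p = 0.404), Lgals4 by -0.83 (SE 0.28, limma adjusted p = 0.292) and the adipocyte galectin Lgals12 by -4.16 (SE 1.69, limma adjusted p = 0.385). Of 14 tetraspanins and partners other than Cd9, 0 passed limma, 2 were higher at an unadjusted p under 0.05 (6.36% of all genes), with a median of 0.15. Cd53, a leukocyte tetraspanin, was at 1078, 1268 and 432 normalized counts against 281, 366 and 259 (log2 1.49, SE 0.37, limma adjusted p = 0.175), the pattern of Trem2 rather than that of Cd9. Tspan4 differed by 0.33 (SE 0.13), Tspan8 by 0.91 (SE 0.39) and the widely expressed Cd81 by 0.10 (SE 0.09).

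Osteoclasts also make Gpnmb and Spp1. Of 9 measured osteoclast genes 0 passed limma, 2 were higher and 1 lower at an unadjusted p under 0.05 (6.36% and 5.79% of all genes), with a median of 0.10. Ctsk, also in the list of lipid-associated genes, differed by 0.93 without overlap (SE 0.20, limma adjusted p = 0.12). Tnfrsf11a, the receptor RANK, differed by 0.24 (SE 0.10, limma adjusted p = 0.393), and Car2, a carbonic anhydrase also found in red cells, by -2.67 (SE 0.67, limma adjusted p = 0.181). Calcr, the calcitonin receptor, was at 0 in all 6 libraries. Of the 4 MITF and TFE factor genes, 0 passed limma and 1 was higher at an unadjusted p under 0.05 (6.36% of all genes). Tfeb differed by 0.21 (SE 0.08, limma adjusted p = 0.377), Tfe3 by 0.19 (SE 0.09, limma adjusted p = 0.445) and Tfec by 0.46 (SE 0.33, limma adjusted p = 0.635).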
